A study of Mus musculus with 10 samples.

Results

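Long noncoding RNAs that stay in the nucleus or that carry small nucleolar RNAs (snoRNAs) in their introns were followed through the differentiation of mouse embryonic stem cells to blood. The group holds 7 genes chosen by their Ensembl identifiers, of 55487 genes in the count tables. Malat1, Neat1 and Kcnq1ot1 are the nuclear-retained RNAs, and Gas5, Snhg1, Snhg3 and Snhg12 are the snoRNA hosts. Each of the 7 passed the filter on low counts together with 22596 genes in all. None of them is among the 15686 genes of the expression matrix that the authors deposited beside the counts, so the values below come from the count tables.

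Malat1 is a very abundant RNA of nuclear speckles, the compartments that store splicing factors, and Neat1 is the scaffold around which paraspeckles are built. Kcnq1ot1 is transcribed from the paternal allele, antisense to Kcnq1, and is needed to keep several genes of that imprinted domain silent on that allele. A snoRNA host is transcribed and spliced, the snoRNAs are trimmed out of its introns and guide the chemical modification of ribosomal RNA or its cleavage, and the spliced exons of hosts such as Gas5 are translated briefly and then removed by nonsense-mediated decay. Host genes often start within a run of pyrimidines, the feature by which the RNAs of ribosomal proteins are also recognised.

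The cells were HM-1, a mouse embryonic stem (ES) cell line, and 4 populations made from it in serum. Undifferentiated ES cells were grown with LIF. Haemangioblast (HB) cells were selected on magnetic columns for FLK1, the product of Kdr, from embryoid bodies of 3 days. After a further blast culture of HB cells, the first haemogenic endothelium (HE1) was sorted as KIT+ TIE2+ CD41-, the second (HE2) as KIT+ TIE2+ CD41+, and haematopoietic progenitors (HP) as KIT+ TIE2- CD41+. All stages share 1 cell line and the same nuclear RNA kit with depletion of ribosomal RNA, and each has 2 libraries. The study calls replicates of its RNA sequencing biologically independent, while the labels name no cultures, and p-values measure the spread between these libraries. In sorted bulk populations, fewer cells that hold an RNA and less of it in each cell cannot be told apart.

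Between 24920434 and 58782055 counts fell on genes per library, and 3 counts corresponded to between 0.051 and 0.1204 CPM, the share of a library's counts scaled to a fixed total. Levels are given as CPM of the library size after scaling by the trimmed mean of M values (TMM). The summed level of 4 ES markers was at least 1579 CPM in ES and at most 91.5 CPM in any other library, and Kdr rose from a mean of 2.56 CPM in ES to 1120 CPM in HB. Tek, which encodes TIE2, had its highest mean in HE1, at 429 CPM against 222 in HE2 and 62.8 in HP. Itga2b, which encodes CD41, was at 41.2 CPM in HB, 177 in HE1, although that stage was sorted as CD41-, 487 in HE2 and 384 in HP. Kit was lower in HE1, at 110 CPM, than in ES, at 168 CPM, and at 320 and 307 CPM in HE2 and HP. The 13 mitochondrial protein genes were at 0 counts in every library, and so gave no measure of cytoplasmic carry-over. The HE1 libraries differed most, with 21.3% of the tested genes more than 2-fold apart against 3.17% in ES. In HE1 replicate 2 the 4 ES markers summed to 57.7 CPM against 5.59 CPM in replicate 1, 4 cardiac markers to 90.9 against 24.9 CPM, and 4 markers of haemogenic endothelium to 1656 against 2887 CPM. Smooth muscle markers summed to 939 against 622 CPM and neural markers to 76.1 against 29.8 CPM there. Single genes made up most of the cardiac and neural sums in HE1, with means of 45.1 CPM for Tnnt2 and 51.4 CPM for Tubb3. The other cardiac markers Actc1, Nkx2-5 and Myl7 had means of 7.70, 4.18 and 0.899 CPM. The other neural markers Sox1, Pax6 and Neurog1 had means of 1.07, 0.394 and 0.0826 CPM. The part of the differences between the HE1 libraries in the results below was not tested. The main calls and counts that changed without HE1 replicate 2 are given in both ways.

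The genes lie on 4 chromosomes of the mm10 build. Malat1 (ENSMUSG00000092341, chr19:5795690-5802672, minus strand) and Neat1 (ENSMUSG00000092274, chr19:5824708-5845478, minus strand) are neighbours, and each was counted over its whole span of 6983 and 20771 bases. Kcnq1ot1 (ENSMUSG00000101609, chr7:143203458-143296549, minus strand) was counted over 93092 bases inside Kcnq1. Gas5 (ENSMUSG00000053332) lies at chr1:161034422-161038539 on the plus strand and Snhg1 (ENSMUSG00000108414) at chr19:8723475-8726443 on the plus strand. Snhg3 (ENSMUSG00000085241, chr4:132348014-132353686, minus strand) and Snhg12 (ENSMUSG00000086290, chr4:132308623-132311024, plus strand) are close to each other on opposite strands. The exons counted for Gas5, Snhg1 and Snhg12 include retained-intron models and therefore cover their snoRNAs, whereas the Snhg3 exons span only 986 of 5673 bases.

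The starts of the 4 hosts are shown because 3 of them moved together in the counts as deposited. Snhg3 also fell from ES to HB once the counts of a snoRNA on its exons were subtracted, as described below. Whether its course differs from that of the 3 is therefore uncertain. The windows are from RefSeq on the GRCm38.p6 assembly, run from 40 bases before the annotated start through the first 20 bases from it, and are written 5′ to 3′ on the strand of the gene. Capitals mark the letters TATA between 40 and 15 bases before the start, and a run of at least 6 bases that begins with C, holds only C and T and begins within 10 bases of the start.
Gas5, second RefSeq start, chr1:161035126-161035185, plus strand: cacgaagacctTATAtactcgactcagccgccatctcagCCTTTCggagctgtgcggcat
Snhg1, chr19:8723447-8723506, plus strand: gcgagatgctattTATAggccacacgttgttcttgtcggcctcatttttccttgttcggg
Snhg12, chr4:132308638-132308697, plus strand: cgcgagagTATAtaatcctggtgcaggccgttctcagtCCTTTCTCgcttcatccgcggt
Snhg3, chr4:132353667-132353726, minus strand: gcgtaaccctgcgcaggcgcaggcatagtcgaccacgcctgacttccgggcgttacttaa
Gas5 and Snhg12 had both features and Snhg1 had TATA alone, while the window of Snhg3, the first window of Gas5, and those of Malat1 and Kcnq1ot1 had neither. Of 32851 RefSeq windows searched in the same way, 5.91% held TATA there, 19.2% held the run, and 1.18% held both. TATA reads alike on both strands, and the run was searched on the strand of the gene only. A match of letters is a description and no evidence that a factor binds.

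The hosts held 23 snoRNA genes on their own strand, 9 in Gas5, 8 in Snhg1, 2 in Snhg3 and 4 in Snhg12. The 5 with the highest mean count are printed from the GENCODE release 21 transcripts, with T for U, and lie on mm10. Capitals mark the C box (TGATGA) and the D box (CTGA) of C/D snoRNAs, which guide methylation, or the ACA close to the 3′ end of H/ACA snoRNAs.
Gm23212, in Gas5, chr1:161036682-161036741: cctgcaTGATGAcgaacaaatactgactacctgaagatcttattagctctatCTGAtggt
Gm22357, in Gas5, chr1:161036057-161036139: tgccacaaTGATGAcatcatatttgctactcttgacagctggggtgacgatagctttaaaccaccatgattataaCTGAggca
Snord22, in Snhg1, chr19:8725866-8725991: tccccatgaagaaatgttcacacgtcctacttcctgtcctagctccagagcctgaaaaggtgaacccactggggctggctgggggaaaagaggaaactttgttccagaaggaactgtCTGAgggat
Snora73a, in Snhg3, chr4:132352775-132352979: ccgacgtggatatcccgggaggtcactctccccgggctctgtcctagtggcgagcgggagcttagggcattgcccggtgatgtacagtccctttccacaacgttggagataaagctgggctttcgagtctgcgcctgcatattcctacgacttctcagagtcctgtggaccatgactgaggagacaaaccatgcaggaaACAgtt
Snora73b, in Snhg3, chr4:132352322-132352526: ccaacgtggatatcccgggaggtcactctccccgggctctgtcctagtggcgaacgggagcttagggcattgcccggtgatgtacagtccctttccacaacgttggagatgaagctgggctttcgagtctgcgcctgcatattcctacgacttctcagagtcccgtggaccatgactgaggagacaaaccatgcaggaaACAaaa
Snora73a and Snora73b differed at 7 of 205 positions, so that reads could be placed on either copy and their separate counts are uncertain.

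By the mean CPM per kilobase of counted length over all libraries, Malat1 ranked 2, Snhg3 9, Gas5 14, Snhg1 15, Snhg12 37, Neat1 146 and Kcnq1ot1 228 among the 2183 long noncoding genes tested. Together the 7 RNAs took between 0.312% of the counts in HE2 replicate 2 and 1.16% in ES replicate 2. The 4 hosts alone took 0.149% and 0.153% in the ES libraries and between 0.0227% and 0.0390% in the HE1, HE2 and HP libraries.

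Divided by the counted length, the order of the stage means was nearly constant. Malat1 was first in all stages, at 1446 ± 30.2 CPM per kilobase (SD, n = 2) in ES and 584 ± 43.8 at the HB stage, and its libraries never overlapped those of the next gene. Snhg3 followed in each stage, from 262 ± 6.48 CPM per kilobase in ES to 84.9 ± 53.4 at HE1. Gas5 and Snhg1 came next and did not differ beyond their spread in ES, HB and HE1. Snhg12 followed them, and its HE1 libraries overlapped those of Neat1. Neat1 and Kcnq1ot1 were lowest, with overlapping libraries in HB, HE1, HE2 and HP. The second place of Snhg3 rests on a short counted length on which Snora73a lies in part, as described below.

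**Figure D1:**
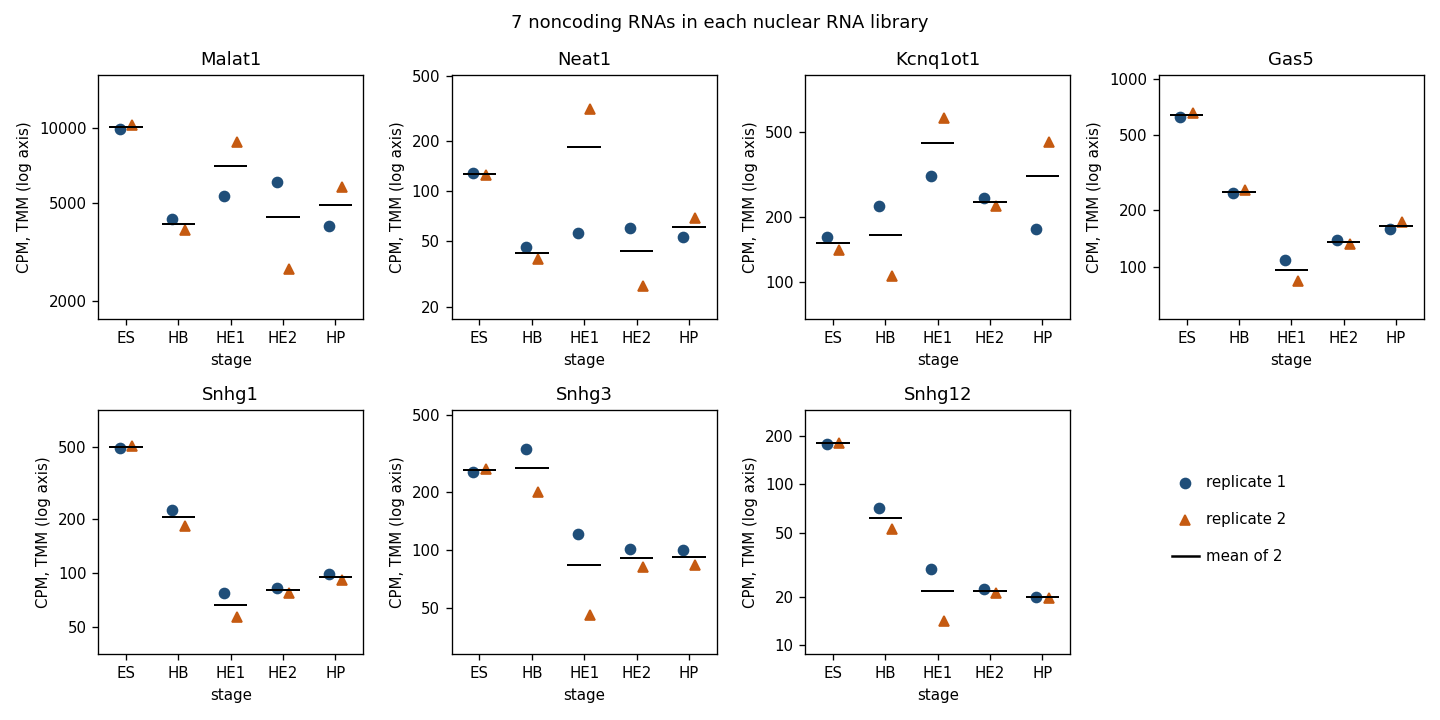
Level of each of the 7 RNAs in each library, in CPM after TMM scaling on a log axis, against stage, with circles for replicate 1, triangles for replicate 2 and a line for the mean of 2. Gas5, Snhg1 and Snhg12 were highest in both ES libraries and lower in HB and again in HE1, whereas Neat1 in HE1 replicate 2, at 316 CPM, stood far above the other HE1 library.

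Gas5, Snhg1 and Snhg12 fell in 2 steps, from ES to HB and from HB to HE1, and kept these calls with every library left out in turn. Gas5, whose spliced exons are a standard substrate of nonsense-mediated decay, was at 627 and 654 CPM in the ES libraries, 245 and 255 at the HB stage, 108 and 83.8 at HE1, 139 and 132 at HE2, and 158 and 172 at HP. No HB library overlapped with ES, and no HE1 library overlapped with HB. The fitted change was −1.36 (SE 0.16) on the log2 scale from ES to HB and −1.39 (SE 0.16) from HB to HE1, with adjusted p of 7.77e-05 and 0.000155 in edgeR's quasi-likelihood test. Gas5 was slightly higher in HE2 than in HE1 in both libraries, by 0.50 (SE 0.15), but its adjusted p of 0.0545 missed the threshold of 0.05. It passed with limma-voom, DESeq2, total counts, no filter, without the 20 top genes, without HE1 replicate 1 and less its snoRNA counts, and was 0.33 without HE1 replicate 2, with adjusted p from 0.0141 to 0.213 over all alternatives.

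Snhg1, the host of a series of C/D snoRNAs, was at 494 and 503 CPM in ES, 224 and 183 at the HB stage, 76.8 and 56.5 at HE1, 82.4 and 77.4 at HE2, and 98.9 and 91.0 at HP. Its course was that of Gas5, with the lowest mean in HE1 and both HP libraries above both HE2 libraries. It fell by 1.29 (SE 0.17) from ES to HB and by 1.61 (SE 0.18) from HB to HE1 on the log2 scale, with adjusted p of 0.000222 and 0.0001296 in edgeR.

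Snhg12, which hosts H/ACA snoRNAs and Snord99, was at 178 and 181 CPM in ES, 70.8 and 53.0 at the HB stage, 29.7 and 14.1 at HE1, 22.3 and 21.02 at HE2, and 20.03 and 19.6 at HP. All HE2 and HP libraries lay between the HE1 libraries. Its changes were −1.54 (SE 0.28) and −1.503 (SE 0.28) on the log2 scale, with adjusted p of 0.00143 and 0.00295 in edgeR. The second was −2.13 without HE1 replicate 1 and −1.06 without HE1 replicate 2. From ES to HP the change of Snhg12 was the largest of the 7 RNAs, at −3.18 (SE 0.30, adjusted p 1.16e-05), against −2.39 (SE 0.18) for Snhg1 and −1.95 (SE 0.16) for Gas5.

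Snhg3 took another course in HB. It was at 254 and 263 CPM in ES, 332 and 199 at the HB stage, 121 and 46.4 at HE1, 101 and 81.5 at HE2, and 99.6 and 83.7 at HP. The HB libraries lay on either side of ES, and the change of 0.04 (SE 0.37) had a 95% interval from −0.77 to 0.85. It fell by 1.67 (SE 0.38) from HB to HE1, with an adjusted p of 0.00789 in edgeR. That change was −2.51 without HE1 replicate 1 and −1.13 without HE1 replicate 2. From ES to HP Snhg3 fell by 1.497 (SE 0.37), with an adjusted p of 0.00667 in edgeR. Without HP replicate 2 that change was −1.38 with an adjusted p of 0.0538, in a range from 2.2e-14 to 0.0538 over all alternatives.

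Over the comparisons, 4 of the 7 RNAs were called lower and none higher in HB than in ES, where 40.4% of the tested genes were called, 22.6% lower and 17.8% higher. In HE1 against HB the 4 hosts were called lower and 2 nuclear-retained RNAs higher, where 32.3% of the tested genes were called, 14.8% lower and 17.5% higher. In HE2 against HE1 only Neat1 was called, as lower, where 13.2% of the tested genes were called, 7.12% lower and 6.12% higher. In HP against HE2 none of the 22596 genes was called (0%) in edgeR, and 1783 genes (7.89%) had an unadjusted p under 0.05. There limma-voom called 66 genes and DESeq2 465, with none of the 7 RNAs among them. In HP against ES 5 RNAs were called lower and none higher, where 51.6% of the tested genes were called, 27.5% lower and 24.1% higher. Each of the 7 differed among the 5 stages in the joint test, which 66.7% of all tested genes passed, with adjusted p from 9.85e-07 for Snhg1 to 0.0386 for Kcnq1ot1. With HE1 replicate 2 left out, 5 RNAs were called lower in HB against ES, where 25% of all tested genes were lower, and 6 in HP against ES, where 29.5% were, Neat1 being the addition in both. In HE1 against HB the 4 hosts stayed lower, where 10.7% were, and the count called higher went from 2 to 0, as it did without HB replicate 2. In HE2 against HE1 none of the 7 was then called, and the calls over all genes went from 2992 to 674. The comparisons share libraries and are not independent of each other.

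**Figure D2:**
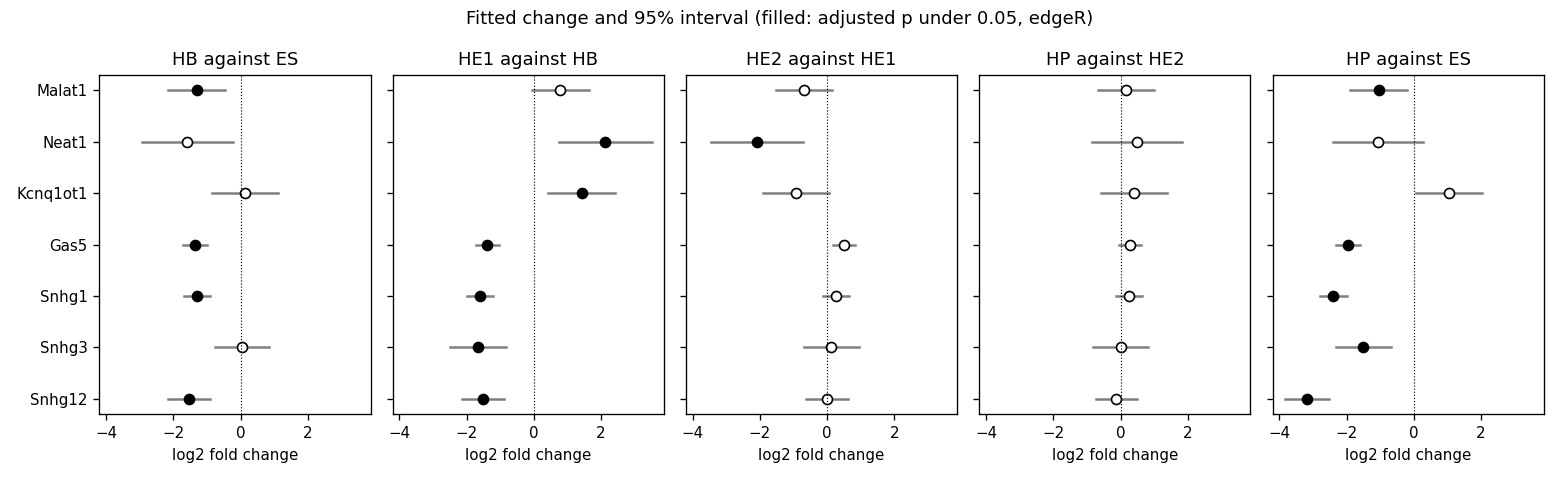
Fitted log2 fold change of each RNA in 5 comparisons of stages, with its 95% interval, filled where edgeR's adjusted p was under 0.05. The intervals of Gas5 and Snhg1 are the narrowest, and in HP against HE2 no point is filled.

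Most snoRNA genes inside the hosts were called lower at both steps. Of the 23, all tested, 20 were called lower in HB than in ES and 23 lower in HE1 than in HB, with medians of −1.58 and −1.52 on the log2 scale against 0.00 and 0.04 over all tested genes, of which 22.6% and 14.8% were called lower. None was called in HE2 against HE1 or in HP against HE2, and 22 were called lower in HP than in ES, with a median of −2.65 against −0.01 over all genes, of which 27.5% were called lower. With HE1 replicate 2 left out, 20 were called lower and 1, Snora73a, higher in HB against ES, 19 lower in HE1 against HB and 23 lower in HP against ES, where 25%, 10.7% and 29.5% of all tested genes were called lower. Since a read pair was counted on every gene it overlapped, 1 pair from an unspliced host could count for both, and these are not measurements independent of the host. Mature snoRNAs are also shorter than the fragments that such a library keeps best.

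Gm23212, a C/D snoRNA in Gas5, was at 63.8 and 69.0 CPM in ES, 21.4 and 22.0 at the HB stage, and 9.80 and 6.87 at HE1. Gm22357, also in Gas5, was at 63.3 and 69.1 CPM in ES, 24.7 and 21.5 at the HB stage, and 9.13 and 7.36 at HE1. Both fell at both steps, without overlap between the stages. The 3 snoRNA genes not called in HB against ES were Snord22, Snora73a and Snora73b. Snord22, the longest snoRNA of Snhg1, was at 49.5 and 51.0 CPM in ES, 52.9 and 27.4 at the HB stage, and 12.1 and 6.54 at HE1. Its HB value was higher in replicate 1, as were those of Snora73a and Snora73b.

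**Figure D3:**
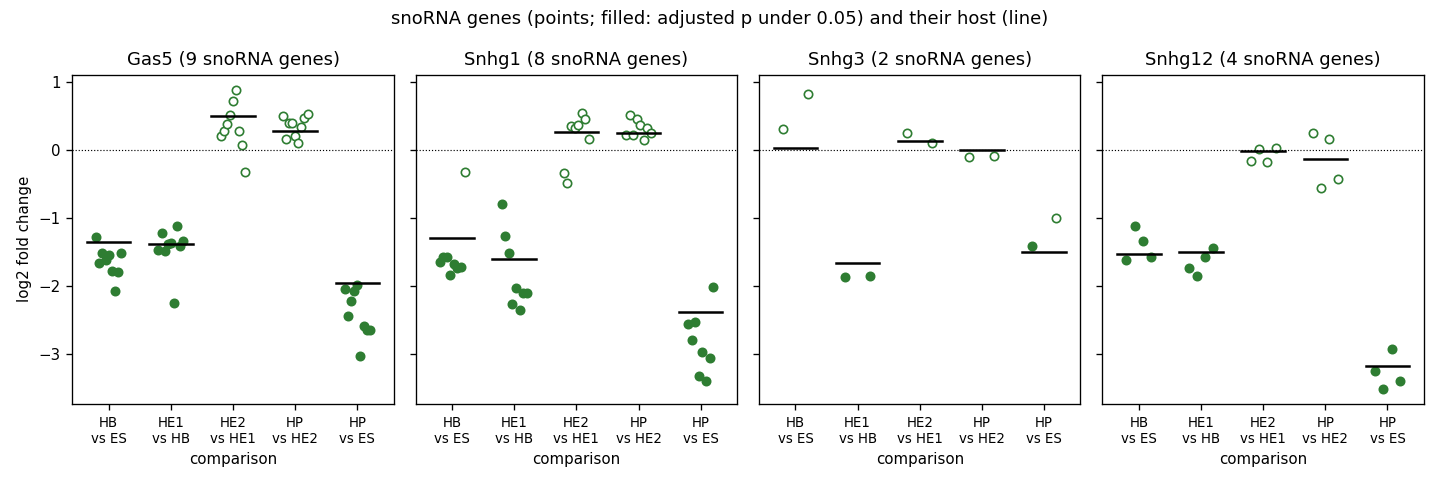
Fitted log2 fold change of the 23 snoRNA genes (points, filled where adjusted p was under 0.05 in edgeR) beside that of their host (line), in 4 hosts and 5 comparisons. In HB against ES the 2 snoRNAs of Snhg3 lie above 0, that of Snord22 lies at −0.33, and the other points lie below −1.

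Snora73a, an H/ACA snoRNA that takes part in the cleavage of ribosomal RNA precursors, had 159 of its 205 bases on a counted exon of Snhg3. Its level was 129 and 135 CPM in ES, 300 and 166 at the HB stage, 99.1 and 30.4 at HE1, 83.6 and 55.6 at HE2, and 72.3 and 59.2 at HP. Its counts equalled 50.9% of those of Snhg3 in ES and 87.5% in HB. Snora73b, which touches no counted exon of Snhg3, was at 97.9 and 97.9 CPM in ES, 150 and 94.3 at the HB stage, and 49.0 and 17.7 at HE1. Most of the span of Snhg3 also lies inside Rcc1, which encodes a regulator of Ran and is on the same strand, and the values of Snhg3 are uncertain for that reason too.

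After subtraction of the Snora73a counts, a step chosen after the values were seen, Snhg3 was at 125 and 128 CPM in ES, 32.003 and 32.8 at the HB stage, 21.8 and 16.1 at HE1, 17.6 and 25.9 at HE2, and 27.4 and 24.5 at HP. The remaining counts did not overlap between ES and HB, and the change was −1.97 (SE 0.21) with an adjusted p of 4.53e-05 in edgeR, where adjusted p over all alternatives ran up to 0.986. From HB to HE1 it was −0.78 (SE 0.20, adjusted p 0.0158). Pairs on Snora73a can also come from the unspliced host, and the remaining counts can hold pairs from Rcc1, so that neither the levels nor the change after subtraction bound those of the host. The same step left the direction of Gas5, Snhg1 and Snhg12 in HB against ES as it was, at −1.10 (SE 0.13), −1.20 (SE 0.16) and −1.69 (SE 0.20).

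**Figure D4:**
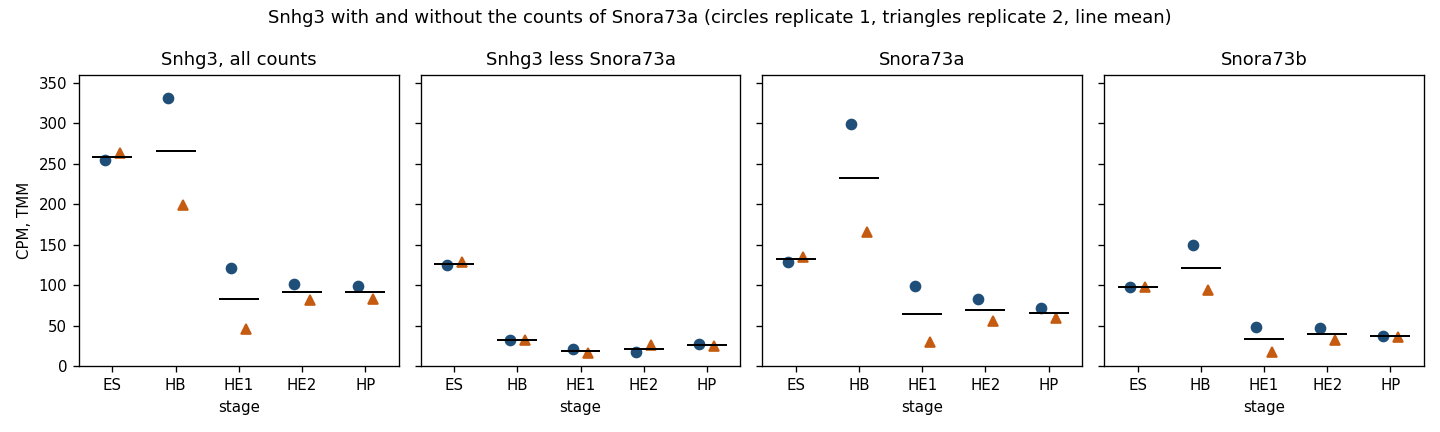
Level in CPM after TMM scaling of Snhg3, of Snhg3 less the counts of Snora73a, and of the 2 snoRNAs, by stage, with circles for replicate 1, triangles for replicate 2 and a line for the mean. Snhg3 and Snora73a were both highest in HB replicate 1, whereas the remaining Snhg3 counts were at 32.003 and 32.8 CPM in HB.

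Of the other noncoding snoRNA hosts, 15 of 17 listed were found, and Snhg4 and Snhg7 were not analysed here. In HB against ES 10 were called lower and 1 higher, in HE1 against HB 8 lower and none higher, and in HP against ES 12 lower and none higher, with medians of −0.97, −0.84 and −1.34 on the log2 scale against 0.00, 0.04 and −0.01 over all genes. Of all tested genes 22.6%, 14.8% and 27.5% were called lower there. None was called in HE2 against HE1 or HP against HE2. The count in HE1 against HB was 6 lower without HE1 replicate 2, where 10.7% of all tested genes were, and the other counts were as before. Zfas1, a host of C/D snoRNAs, was at 186 ± 1.36 CPM (SD, n = 2) in ES, 63.4 ± 12.5 at HB and 21.7 ± 2.59 at HE1. Snhg5 was at 198 ± 2.03, 67.8 ± 5.22 and 27.7 ± 2.22 CPM in these stages. Snhg11 was at 67.3 ± 0.543 CPM in ES and 55.9 ± 10.6 at HB, a difference not called, and at 6.48 ± 0.545 CPM in HE1, a change of −3.11 (SE 0.22, adjusted p 1.27e-05). The host called higher in HB was Snhg18, at 2.14 (SE 0.44, adjusted p 0.00317 in edgeR), named here after its value was seen.

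Among the proteins of snoRNA particles most calls were in HE1 against HB. Of 14 genes, 3 were called lower in HB against ES, 12 lower in HE1 against HB, and 5 lower in HP against ES, with medians of −0.25, −0.77 and −0.43 on the log2 scale against 0.00, 0.04 and −0.01 over all genes. Of all tested genes 22.6%, 14.8% and 27.5% were called lower in these comparisons. Dkc1, the pseudouridine synthase of H/ACA particles, was at 337 ± 3.57 CPM in ES, 135 ± 14.7 at the HB stage, 72.8 ± 11.1 at HE1 and 143 ± 48.1 at HE2. Nop56, a core protein of C/D particles, was at 699 ± 3.10, 341 ± 27.9, 180 ± 17.5 and 259 ± 31.7 CPM in those stages. Both were among the 3 called higher in HE2 against HE1, with Nop10 as the third, where 6.12% of all tested genes were called higher. The changes were 0.53 for Nop56, 0.97 for Dkc1 and 1.11 for Nop10. None of the 3 was called there without HE1 replicate 2, with changes of 0.43 for Nop56, 0.83 for Dkc1 and 1.17 for Nop10. The counts lower were then 2 in HB against ES and 8 in HE1 against HB, Dkc1 not among the latter, where 25% and 10.7% of all tested genes were called lower. Of 10 genes of nonsense-mediated decay, 3 were called lower and 1 higher in HB against ES, and 1 lower in HE1 against HB, where 40.4% and 32.3% of all tested genes were called. When HE1 replicate 2 was left out, the counts were 4 lower and 1 higher in the first comparison, where 25% and 20% of all tested genes were, and none in the second. The one called higher was Smg6, the endonuclease of the pathway, at 81.5 ± 0.492 CPM in ES and 131 ± 1.19 at the HB stage.

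Malat1 was at 9947 and 10245 CPM in ES, 4296 and 3863 at the HB stage, 5325 and 8784 at HE1, 6029 and 2699 at HE2, and 4004 and 5779 at HP. Both ES libraries lay above all others, and the HE2 libraries, 2.23-fold apart, enclosed those of HP. From ES to HB Malat1 fell by 1.31 (SE 0.38) on the log2 scale, with an adjusted p of 0.0193 in edgeR, and from ES to HP by 1.05 (SE 0.38, adjusted p 0.0399). Leaving out either ES or either HB library raised the first adjusted p past the threshold, to 0.12003 without HB replicate 2, which was the highest in a range from 2.41e-13 over all alternatives. The second was between 0.011995 and 0.213 with 1 library left out, and that call was also lost with total counts, at 0.0813, and with the replicate block, at 0.0567, in a range from 7.13e-09 to 0.213 over all alternatives. In HE1 against HB the change was 0.79 (SE 0.38) with an adjusted p of 0.133 in edgeR. It was 0.38 without HE1 replicate 2 and was called with no filter on low counts, in a range of adjusted p from 2.68e-05 to 0.53 over all alternatives.

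Of 12 nuclear speckle proteins none was called in HB against ES, where Malat1 fell, and 5 were called lower in HE1 against HB, with medians of −0.14 and −0.46 on the log2 scale against 0.00 and 0.04 over all genes, of which 40.4% were called in the first comparison and 14.8% called lower in the second. None of the 5 was called without HE1 replicate 2 in HE1 against HB, where 10.7% of all tested genes were called lower and 14.5% higher. Another, Son, was called higher there, and 2 were called lower in HB against ES, where 25% of all tested genes were. Srsf7, a splicing factor and one of the 5, was at 393 ± 5.46 CPM in ES, 354 ± 42.6 at HB and 211 ± 63.0 at HE1, and its change in HE1 against HB went from −0.75 to −0.47 without that library, while that of Pnn, also one of the 5, stayed near its size, at −0.47 and −0.48. Srrm2, a large scaffold protein of speckles, was at 1618 ± 69.9, 1200.1 ± 7.64 and 805 ± 205 CPM in these stages and missed the threshold at that step with an adjusted p of 0.0508 in edgeR. The 86-base model Gm27694 inside Malat1 carried between 3.69% and 4.79% of the Malat1 counts, lowest in HE1 replicate 2.

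Neat1 was at 129 and 126 CPM in ES, 46.3 and 39.0 at the HB stage, 55.7 and 316 at HE1, 60.2 and 26.9 at HE2, and 53.1 and 69.3 at HP. In 1 of the 2 HE1 libraries it exceeded every other library, and in the other it was close to HB, HE2 and HP. The 5.68-fold gap between the HE1 libraries was wider than that of 97.3% of the tested genes. Neat1 was called higher in HE1 than in HB, by 2.12 (SE 0.62, adjusted p 0.0249), and lower in HE2 than in HE1, by −2.09 (SE 0.62, adjusted p 0.04997 in edgeR, just under the threshold). Without HE1 replicate 2 these changes were 0.38 and −0.35, with adjusted p of 0.497 and 0.613, and over all alternatives the adjusted p ran from 4.41e-26 to 0.497 and from 1.85e-24 to 0.613. The first call was also lost without HB replicate 1 or HB replicate 2 and with limma-voom. The second was lost without any 1 of the ES, HB and HP libraries or HE2 replicate 2, and with limma-voom, total counts, the replicate block and only the 4 libraries. Leaving out HB replicate 2 kept the changes at 2.01 and −2.09.

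The fall of Neat1 from ES to HB did not overlap between libraries, at −1.58 (SE 0.61), and missed the threshold with an adjusted p of 0.0618 when all libraries set the spread. Without HE1 replicate 1 or replicate 2 the same change had an adjusted p of 0.0036 or 0.00358, in a range from 4.97e-15 to 0.229 over all alternatives. The change from ES to HP, −1.06, likewise went from an adjusted p of 0.167 to 0.0182 without either HE1 library, in a range from 2.66e-07 to 0.408 over all alternatives. A set of 3 short models lies in the first 1193 bases of Neat1, the part that its short and long isoforms share, and was looked at after the levels had been seen. Gm27533 carried 10.3% of the Neat1 counts in both ES libraries, 5.44% in HE1 replicate 1 and 3.92% in HE1 replicate 2. Gm28006 carried 9.13% and 9.16% in ES, 4.08% in HE1 replicate 1 and 2.42% in HE1 replicate 2. Gm27505 ran from 9% in ES replicate 2 to 2.56% in HE1 replicate 2. All 3 shares were lowest in HE1 replicate 2, where Neat1 was highest.

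Of 13 paraspeckle proteins, 1 was called higher in HB against ES and 6 lower in HE1 against HB, with medians of 0.05 and −0.39 on the log2 scale, where 17.8% of all tested genes were called higher and 14.8% lower. The 6 became 2 without HE1 replicate 2, where 10.7% of all tested genes were called lower, and Nono, Cpsf6, Nudt21 and Hnrnph3 were no longer called. The change of Hnrnph3 was −0.81 with and −0.74 without that library, that of Cpsf6 −0.57 and −0.43, and that of Nudt21 −0.64 and −0.498. Nono, which binds Neat1 as a dimer with its relatives, was at 506 ± 10.6 CPM in ES, 419 ± 48.8 at HB and 287 ± 40.3 at HE1, and its change in HE1 against HB went from −0.55 to −0.41 without that library. With all libraries the call of Nono lay just under the threshold, at an adjusted p of 0.0495 in edgeR. The one called higher in HB was Pspc1, a relative of Nono, at 77.1 ± 1.23 CPM in ES, 103 ± 7.42 at HB and 62.1 ± 6.84 at HE1.

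**Figure D5:**
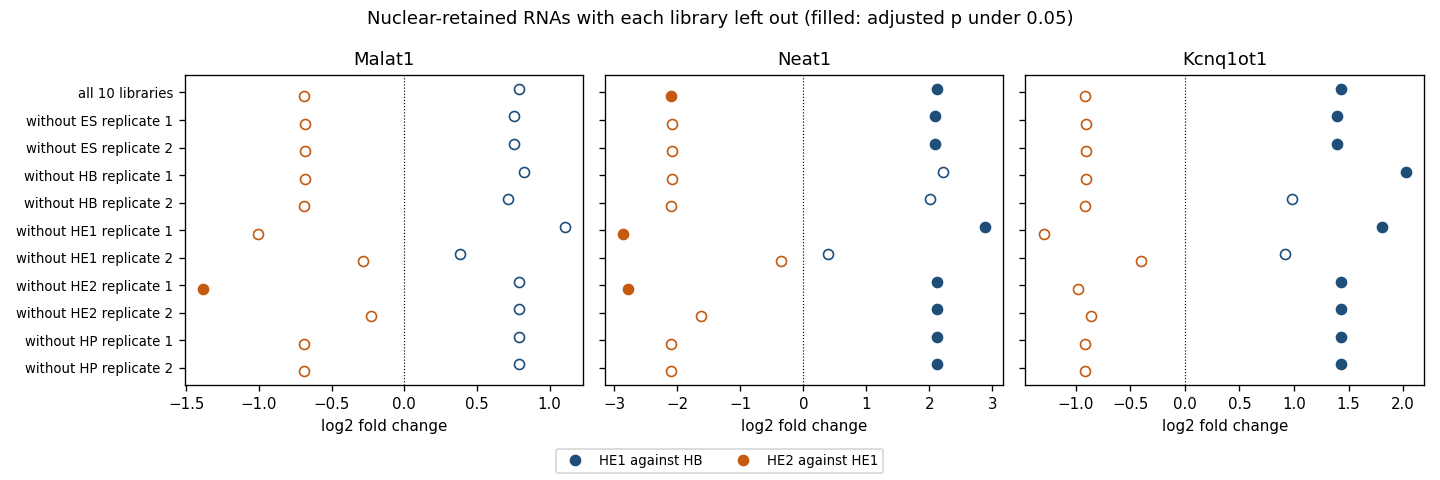
Fitted log2 fold change of Malat1, Neat1 and Kcnq1ot1 in HE1 against HB and HE2 against HE1 with all 10 libraries and with each left out, filled where edgeR's adjusted p was under 0.05. Without HE1 replicate 2 the Neat1 changes shrink to 0.38 and −0.35, and no point of that row is filled.

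Kcnq1ot1 was at 162 and 141 CPM in ES, 226 and 107 at the HB stage, 314 and 581 at HE1, 247 and 227 at HE2, and 177 and 450 at HP. Both HE1 libraries lay above all those of ES, HB and HE2, which held for no other of the 7 RNAs. It rose by 1.43 (SE 0.45) on the log2 scale from HB to HE1, with an adjusted p of 0.0335 in edgeR. Without HE1 replicate 2 the change was 0.92 with an adjusted p of 0.218, and without HB replicate 2 it was 0.98 with 0.226. The call was also lost with the replicate block, at 0.0504, and with total counts, at 0.0542, in a range of adjusted p from 1.3e-13 to 0.226 over all alternatives. In HP the libraries were 2.54-fold apart, and the change from ES, 1.05 (SE 0.45), had an adjusted p of 0.0716 in edgeR. It was 0.23 without HP replicate 2 and 1.57 without HP replicate 1. With no filter on low counts Kcnq1ot1 was called higher in HP than in ES.

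Kcnq1, the potassium channel gene that Kcnq1ot1 overlaps on the other strand, had between 0 and 30 counts per library. The highest count, 30, was in HE1 replicate 2. The call of 3.77 (SE 1.23, adjusted p 0.0391) in HE1 against HB rests on these few counts. Without HE1 replicate 2 the change was 2.78 with an adjusted p of 0.192, and the call was also lost with DESeq2, total counts, the replicate block and without either ES or either HB library, in a range of adjusted p from 0.00542 to 0.211. Of the 12 tested genes of the domain and its borders, 6 were called higher and 3 lower in HE1 against HB, with a median of 0.67 on the log2 scale against 0.04 over all genes, of which 17.5% were called higher and 14.8% lower. In HB against ES 3 were higher and 2 lower, with a median of −0.62 against 0.00 over all genes, of which 17.8% were called higher and 22.6% lower. Leaving out HE1 replicate 2 made these counts 5 higher and 2 lower, where 14.5% and 10.7% of all tested genes were, and 3 higher and 3 lower, where 20% and 25% were.

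The genes of the domain did not share a course. Cdkn1c, an inhibitor of cyclin-dependent kinases, was at 19.3 ± 0.187 CPM in ES, 36.0 ± 1.61 at the HB stage, 45.0 ± 6.54 at HE1, 14.0 ± 5.14 at HE2 and 12.6 ± 4.59 at HP. It was called higher in HB against ES and lower in HE2 against HE1, but the latter call was lost without HE1 replicate 2 (−1.53) and without HE2 replicate 2 (−1.36). Phlda2, which restrains placental growth, was at 39.6 ± 0.253 and 44.0 ± 7.83 CPM in ES and HB and at 2.47 ± 2.25, 0.309 ± 0.167 and 0.508 ± 0.0886 in the later stages. Its call as lower in HE2 against HE1 was lost without HE1 replicate 2, where the change went from −3.01 to −1.498. Slc22a18, a transporter gene, was at 5.05 ± 0.321 CPM in ES and at most at a mean of 0.709 later. Ascl2, a transcription factor of the trophoblast lineage, was at 1.73 ± 0.112 CPM in ES and 0.183 ± 0.0212 at HE1, and its call as lower in HE1 against HB was lost without any 1 of the HB and HE1 libraries. Cd81 was at 373 ± 0.847 CPM in ES, 129 ± 10.5 at HB and 269 ± 31.4 at HE1. The allele of origin was not measured.

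Elsewhere in the domain, Osbpl5, Tspan32, Nap1l4, Tssc4 and Tnfrsf23 were called higher in HB against ES or in HE1 against HB, and Dhcr7 was called lower in HE1 against HB. The higher call of Dhcr7 in HE2 against HE1 was lost without HE1 replicate 2, where the change went from 0.92 to 0.65. Osbpl5, an oxysterol-binding protein gene, was at 5.01 ± 1.11 CPM in ES, 7.78 ± 0.756 at HB and 41.7 ± 5.75 at HE1. Tspan32, a tetraspanin of blood cells, was at 1.54 ± 0.152 CPM in ES, 6.68 ± 3.75 at HE1, 67.4 ± 14.9 at HE2 and 117 ± 12.5 at HP. Nap1l4 was at 109 ± 2.88 CPM in ES and 162 ± 10.9 at the HB stage, and its call as higher there was lost without ES replicate 1, ES replicate 2 or HB replicate 2. Tssc4 was at 22.2 ± 0.979 CPM in HB and 44.9 ± 0.187 at HE1. Tnfrsf23 was at 0.527 ± 0.0910 CPM in HB and 6.58 ± 0.738 at HE1, and Dhcr7, an enzyme of cholesterol synthesis, at 90.7 ± 11.8 and 31.2 ± 9.10 CPM. Trpm5 had stage means of at most 0.0696 CPM and was not tested.

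Across the 10 libraries, which share the 5 stages and their depth, the hosts ran close together. Pearson's r of log2 CPM was 0.98 for Gas5 with Snhg1 and for Snhg1 with Snhg12, 0.95 for Gas5 with Snhg12, and 0.82 to 0.90 for Snhg3 with the other hosts. It was 0.88 for Malat1 with Neat1. Kcnq1ot1 ran opposite to the hosts, with r between −0.72 and −0.66. These are descriptions of 10 libraries.

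By the same measure, the genes most like Snhg1 were Eif4a2 (r 0.99), Orc5 and Tab3. Eif4a2 encodes an RNA helicase of translation initiation and was at 1106 CPM in ES, 576 at the HB stage, 266 at HE1, 293 at HE2 and 320 at HP. The gene most like Snhg12 was Gm24201, a snoRNA gene inside Eif4a2 (r 0.99), and Dnaaf3 and Eif4a2 followed. For Gas5 they were Gm24452, a snoRNA of Snhg1, then Napepld and Gm15421, and for Snhg3 they were Snord22, Gm8066 and Spice1. Malat1, Neat1 and Kcnq1ot1 were matched only by genes with stage means of at most 3.54 CPM, such as Cmya5 for Malat1, Wfikkn2, Il11 and Hic1 for Neat1, and Gm45294 for Kcnq1ot1. The genes named depend on the measure. Ranked by Spearman's rho instead, none of the 3 nearest genes stayed for Gas5, Snhg1, Snhg12 or Kcnq1ot1. For Malat1, Neat1 and Snhg3, 1 of the 3 stayed.

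Among 16 other long noncoding RNAs, 2 were called higher and 5 lower in HB against ES, 5 higher and 1 lower in HE1 against HB, and 6 lower and none higher in HE2 against HE1. Of all tested genes 40.4%, 32.3% and 13.2% were called in these comparisons. Leaving out HE1 replicate 2 made the counts 2 higher and 6 lower in HB against ES, where 20% of all tested genes were called higher and 25% lower. They became 4 higher and none lower in HE1 against HB, where 14.5% were higher and 10.7% lower, and 2 lower in HE2 against HE1, where 1.34% were lower. In HP against HE2, where 0.155% were lower, H19 was then called lower. H19, the imprinted growth-restricting RNA, was at 28.7 ± 1.19 CPM in ES, 423 ± 68.2 at the HB stage, 3419 ± 876 at HE1, 1271 ± 274 at HE2 and 468 ± 55.3 at HP. Airn, an imprinted antisense RNA that silences in cis as Kcnq1ot1 does, was at 0.292 ± 0.0886, 4.70 ± 2.14, 38.2 ± 12.7, 9.49 ± 4.12 and 9.62 ± 4.70 CPM in the same order. Meg3, Rian and Mirg, imprinted RNAs that lie together and are named here after their values were seen, were not called in HE1 against HB, at −0.14, −0.35 and −0.24, and were called lower in HP against ES, at −2.64, −2.67 and −3.57. All 3 were also called lower in HE2 against HE1, at −1.76, −1.47 and −1.73. Without HE1 replicate 2 the calls of Meg3 (−1.69) and Mirg (−1.88) there were lost. Mirg was also called lower in HB against ES, at −1.06. Miat, another nuclear RNA, had a mean of 6.88 CPM in ES and of at most 0.713 CPM in every later stage.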

How the data were processed

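Nuclear-enriched RNA of 10 libraries, 2 for each of 5 stages, was sequenced from both ends after depletion of ribosomal RNA with a stranded kit. The authors removed ribosomal reads with RiboDetector, trimmed with Trimmomatic, aligned to mm10 with HISAT2 2.2.1 and deposited counts per Ensembl gene from featureCounts, in which a read pair counted on every gene it overlapped on its strand. The authors also deposited a matrix with 1 score per gene and stage, without replicates, which was not tested. Symbols were found for 55141 of 55487 identifiers.

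Counts were fitted with edgeR 4.0.16 in R 4.3.3 by the quasi-likelihood test over all 10 libraries, with TMM scaling, the default filter on low counts by stage, and Benjamini-Hochberg adjustment over 22596 genes. A gene was called at an adjusted p under 0.05, and standard errors and intervals are those of the fitted log2 change. On simulated counts for HB against ES with 200 changed genes among 22596, 24.5% of changes of 1 on the log2 scale and 77% of changes of 2 were recovered, beside 11 and 7 false calls among the unchanged genes. In the data 40.4% of the tested genes were called in HB against ES, so these rates need not hold there. Depth was between 24920434 and 58782055 counts per library, and its part in the precision was not tested.

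Alternatives were limma-voom (limma 3.58.1), DESeq2 1.42.0, total counts, no filter, a replicate block, leaving out the 20 most abundant genes, fitting only the 4 libraries compared, leaving out each library, and hosts less their snoRNA counts, the last added after the values were seen. The members and gene lists were chosen with earlier results of these data known. Named were all 7 members, the 5 snoRNA genes with the highest mean count, up to 3 genes a list with the largest range of stage means among those past the joint test, all genes of the Kcnq1 domain, and the 3 genes most like each member over 10 libraries. A gene that this rule also names is not reported here.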

Additional observations from a re-analysis of the deposited data

How the results depend on the processing

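Of 280 changes of single RNAs under settings other than a left-out library, 248 kept their direction and their side of the threshold, 9 lost the call, 14 gained one and 9 turned direction. With each of the 10 libraries left out, 304 of 350 stayed. Gas5, Snhg1 and Snhg12 stayed called and lower in HB against ES, HE1 against HB and HP against ES under every alternative. The causes of the changes below were not tested.

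In HE1 against HB the count of RNAs called higher went from 2 to 1 with limma-voom (Neat1 lost), total counts and the replicate block (Kcnq1ot1 lost), to 3 with no filter (Malat1 gained), and lay between 0 and 2 with a library left out. In HE2 against HE1 the count called higher went from 0 to 1 with limma-voom, DESeq2, total counts, no filter, without the 20 top genes and with hosts less their snoRNA counts (0 to 3 with a library left out), and the count called lower from 1 to 0 with limma-voom, total counts, the replicate block and only the 4 libraries, and to 3 with no filter (0 to 2). In HP against ES the count called higher went from 0 to 1 with no filter (0 to 1), and the count called lower ran from 3 to 6, and in HB against ES from 3 to 5, with a library left out.

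Over all genes, HE2 against HE1 gave 2992 calls, but 4623 with DESeq2, 6061 with no filter, 1899 with the replicate block and 544 with only the 4 libraries, and 502 to 5596 with a library left out. HP against HE2 gave 0, but 66 with limma-voom, 465 with DESeq2 and 846 with no filter, and 0 to 640 with a library left out. Those ranges were 5841 to 10171 in HB against ES, 3370 to 7769 in HE1 against HB and 8478 to 12523 in HP against ES.

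The change of Snhg3 in HB against ES turned to −0.0104 with limma-voom, −0.0329 with the replicate block and −1.97 with hosts less their snoRNA counts. That of Snhg12 in HE2 against HE1 turned to 0.12 with limma-voom, 0.00648 with no filter, 0.034 with the replicate block, 0.0122 without the 20 top genes and 0.0759 with hosts less their snoRNA counts. That of Snhg3 in HP against HE2 turned to −0.00951 with only the 4 libraries. With a library left out, directions turned for Kcnq1ot1 (−0.48 to 0.58) and Snhg3 (−0.35 to 0.36) in HB against ES, for Snhg3 (−0.40 to 0.98) and Snhg12 (−0.46 to 0.62) in HE2 against HE1, and for Malat1 (−0.30 to 0.86), Kcnq1ot1 (−0.42 to 0.92) and Snhg3 (−0.14 to 0.17) in HP against HE2. None of these changes was called with all libraries on the counts as deposited, but that of Snhg3 at −1.97 was, as were Snhg3 (0.98) and Snhg12 (0.62) in HE2 against HE1 without HE1 replicate 1.

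Replicate numbers were not treated as pairs: the correlation of replicate differences between stages ran from −0.316 to 0.213. With the replicate block Malat1 in HP against ES had an adjusted p of 0.0567 in edgeR, in a range from 7.13e-09 to 0.213 over its alternatives. Where a library is left out, its stage has 1 library, which is assumed to vary like the others. With 2 libraries a stage, changes of 1 on the log2 scale were often missed in simulated counts. The simulation changed 200 genes, where 9122 were called in HB against ES, so its rate need not hold in the data. An RNA not called cannot be read as steady.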
